A study of Mus musculus with 6 samples.

Results

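Matricellular genes around fibronectin and tenascin were followed across the E, M and RE stages of EpH4, an epithelial line from mouse mammary gland. They are *Fn1*, *Tnc*, *Spp1*, *Sparc*, *Thbs1*, *Thbs2*, *Postn* and *Tgfbi*, chosen by name, and all 8 were found among the 17428 gene rows of the deposited table. E cells were untreated EpH4 cells in D-MEM/F12 medium with serum, antibiotics and insulin, M cells had received TGFβ1 in that medium for 7 days, and RE cells had received TGFβ1 for 7 days and then medium without it for another 4 days. RNA of 2 biological replicates of each stage was sequenced, which gives 6 libraries. All 3 stages come from the same cell line, and the labels give no culture time for the E cells, so in E vs. RE the past TGFβ1 and the added time in culture cannot be told apart. Nor can the removal of TGFβ1 and the 4 further days in culture be told apart in M vs. RE. Whether the time in culture also differed in E vs. M is not known from the labels.

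Matricellular proteins are secreted into the extracellular matrix, where they change how cells attach, spread and respond to growth factors, rather than carrying load as collagen does. Fibronectin is the adhesive glycoprotein on which much of this matrix is built. Cells assemble it into fibrils through integrins, and tenascin-C, thrombospondins, periostin and TGFBI bind to this scaffold or to the same receptors. In the mammary gland these genes are mostly known from stroma and from wounded or cancerous tissue, and TGFβ1 is a classical inducer of several of them.

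The values are coverage, meaning the bases read from each gene, and are given in ppm of all bases of a library after normalization between libraries. The libraries held between 35782513 and 47928557 reads' worth of 50 bases. The test was limma on log2(ppm + 0.1), with all 6 libraries in 1 fit. It covered the 13893 genes that reached 500 bases in 2 or more libraries, the 8 genes among them. A change was called where it exceeded 1 on the log2 scale, up or down, with an adjusted p (Benjamini-Hochberg) under 0.01. Changes are signed by the second stage named, so that a value above 0 in E vs. M is a gain in M. Replicates were less alike in the E cells, where their log2 difference had an SD over genes of 0.558, against 0.318 for M and 0.309 for RE. Of the epithelial markers, *Cdh1* (E-cadherin) was at a mean of 302 ppm in the E, 273.5 ppm in the M and 268.5 ppm in the RE cells. Other markers of this list, named after their values were seen, did change: *Tacstd1* (Epcam) was lower in M (−1.26, limma adjusted p = 0.000621) and in RE (−1.23, adjusted p = 0.00153) than in E, *Krt18*, a luminal keratin, was lower in RE than in E (−1.34, adjusted p = 0.00305), and *Krt8*, its partner, was lower in RE than in M (−1.32, adjusted p = 0.000529). Of the basal keratins, *Krt14* was at means of 269, 711 and 329.8 ppm in E, M and RE and was called higher in M than in E (1.42, limma adjusted p = 0.00094), while *Krt5* was at a mean of 0.472 ppm at most. The libraries are of bulk RNA, so that fewer cells expressing a gene and less RNA per cell cannot be told apart.

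To show the sequence next to the measurements, the 250 bases before a RefSeq transcription start (GRCm38.p6, not the authors' build) are shown for 4 of the 6 genes that were called in E vs. M. They are *Tnc* (chr4:64046937-64047186, minus strand) and *Postn* (chr3:54360857-54361106, plus strand), each at the second of 2 starts listed, *Sparc* (chr11:55420081-55420330, minus strand) and *Tgfbi* (chr13:56609336-56609585, plus strand). Capitals mark matches, on either strand, to the SMAD motif CAGAC, to TATAAA and to the Sp1 box GGGCGG.
Tnc: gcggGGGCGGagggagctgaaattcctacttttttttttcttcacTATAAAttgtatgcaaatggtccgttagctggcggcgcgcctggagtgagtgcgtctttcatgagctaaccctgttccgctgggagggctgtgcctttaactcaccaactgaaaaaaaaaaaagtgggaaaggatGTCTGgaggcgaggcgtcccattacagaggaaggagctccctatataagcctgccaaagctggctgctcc
Postn: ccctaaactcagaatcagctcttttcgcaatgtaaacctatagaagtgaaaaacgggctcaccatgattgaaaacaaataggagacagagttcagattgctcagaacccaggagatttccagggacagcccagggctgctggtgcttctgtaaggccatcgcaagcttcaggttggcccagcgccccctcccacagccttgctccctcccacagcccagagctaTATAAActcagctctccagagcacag
Sparc: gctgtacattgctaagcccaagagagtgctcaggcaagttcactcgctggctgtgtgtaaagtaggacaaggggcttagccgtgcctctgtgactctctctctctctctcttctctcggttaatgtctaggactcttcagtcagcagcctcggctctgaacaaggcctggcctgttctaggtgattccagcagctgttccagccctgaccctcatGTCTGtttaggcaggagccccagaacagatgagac
Tgfbi: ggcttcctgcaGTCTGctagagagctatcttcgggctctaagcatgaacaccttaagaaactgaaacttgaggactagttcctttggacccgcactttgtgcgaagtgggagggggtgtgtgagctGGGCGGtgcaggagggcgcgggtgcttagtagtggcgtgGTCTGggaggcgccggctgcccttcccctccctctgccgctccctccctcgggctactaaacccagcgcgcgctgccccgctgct
RefSeq windows were found, by symbol, for 6 of the 8 genes. CAGAC was found in the *Tnc*, *Sparc* and *Tgfbi* windows shown and not in the *Postn* window shown. At the first start listed this was reversed, with no match for *Tnc* and 1 for *Postn*. It also stood in both *Spp1* windows and in the *Thbs2* window, of genes not called in E vs. M. The motif is common and stood in 42.2% of all 32851 windows of this length. TATAAA stood 26 bases before the *Postn* start and 205 bases before the *Tnc* start, and in 12.4% of all windows. Only exact matches were marked, so the stretch tatataag near the end of the *Tnc* window is not. GGGCGG stood in the *Tnc* and *Tgfbi* windows and in 32.7% of all windows. The AP-1 motif TGANTCA, the TEAD motif GGAATG and the palindrome GTCTAGAC had no match in any window of these 6 genes, and stood in 6.7%, 12.6% and 0.2% of all windows.

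The 8 genes took up 0.599% and 0.899% of all coverage in the E libraries, 3.42% and 3.61% in the M libraries and 1.94% and 1.82% in the RE libraries. *Fn1* and *Tnc* made up most of the gain in the M cells. *Fn1* alone held 1.59% and 1.63% of all coverage there, more than any other gene, and was also first in both RE libraries. By coverage it already ranked 9 in E replicate 1 and 2 in E replicate 2. *Tnc* held 0.00656% and 0.0123% in the E, 1.14% and 1.22% in the M and 0.0228% and 0.0272% in the RE libraries. The mix within the group therefore differed by stage: *Tnc* held 33.2% and 33.7% of the coverage of the 8 genes in the M libraries, and between 1.09% and 1.51% in each E and RE library.

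**Figure D1:**
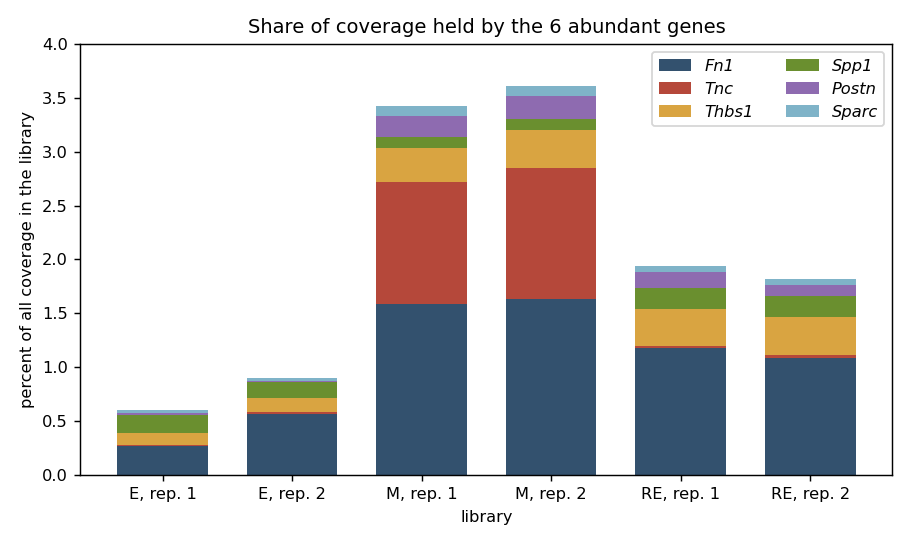
Share of all coverage (percent, y axis) held by the 6 abundant genes in each of the 6 libraries (x axis), stacked by gene; Thbs2 and Tgfbi are too low to draw. The M bars reach 3.42% and 3.61%, with Tnc as a wide band seen in M only, and the RE bars reach 1.94% and 1.82%, above both E bars.

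In E vs. M, 6 of the 8 genes were called, all higher in M (*Fn1*, *Tnc*, *Sparc*, *Thbs1*, *Postn* and *Tgfbi*), where 17% of all genes tested were called, 8.58% higher and 8.39% lower. In M vs. RE, 3 were called, all lower in RE (*Tnc*, *Sparc* and *Tgfbi*), against 12.9% of all genes called, 8.08% higher and 4.79% lower. In E vs. RE, 4 were called, all higher in RE (*Tnc*, *Sparc*, *Thbs1* and *Postn*), against 9.37% of all genes called, 6.2% higher and 3.17% lower. Median log2 fold changes of the 8 genes of 2.28 for E vs. M, −0.81 for M vs. RE and 1.39 for E vs. RE stood beside 0.0013, −0.017 and 0.0079 over all genes tested. The E libraries enter both E vs. M and E vs. RE, and the M libraries both E vs. M and M vs. RE, so these comparisons are not independent of each other. With library totals in place of the normalization, the median of all genes shifted to −0.29 (E vs. M), 0.18 (M vs. RE) and −0.082 (E vs. RE), and the calls on the 8 genes were the same except that *Sparc* was no longer called in M vs. RE. The count in E vs. RE rests on both RE libraries: without RE replicate 1 or without RE replicate 2 it was 1 (*Postn*), and 0.32% or 1.16% of all genes were then called.

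**Figure D2:**
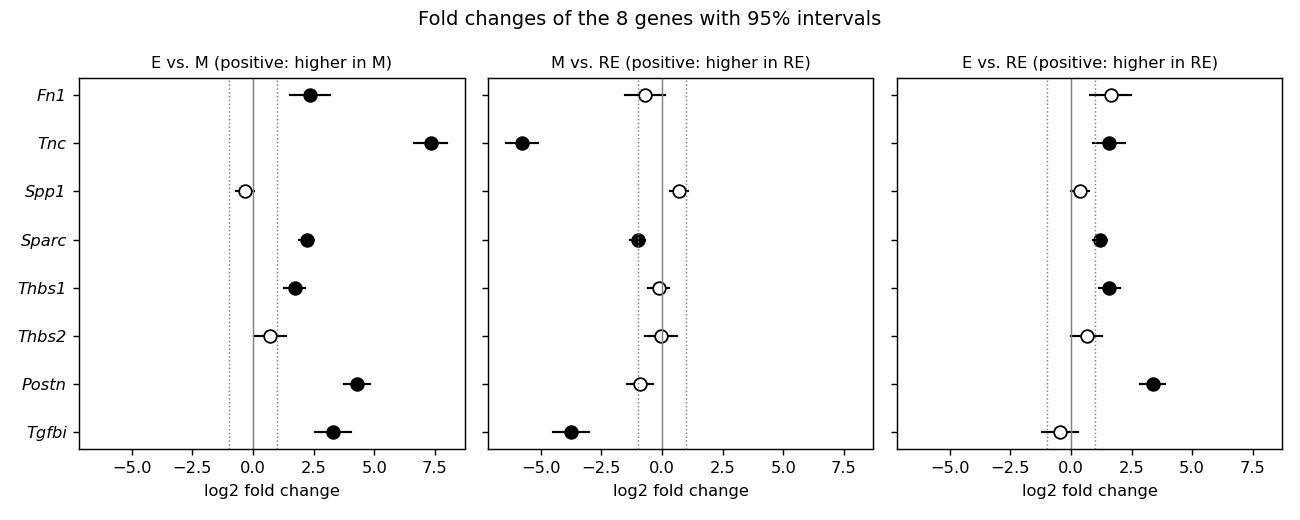
Log2 fold change (x axis) of each gene (y axis) in the 3 comparisons, with 95% intervals from limma; filled points were called, open points were not, and dotted lines mark a log2 fold change of 1 in either direction. In E vs. M 6 points are filled, led by Tnc at 7.33, in M vs. RE Tnc and Tgfbi lie far below 0, and in E vs. RE Postn lies highest at 3.37.

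*Fn1* encodes fibronectin. Its coverage was 2379 and 5276 ppm in the E libraries, 18203 and 17943 ppm in the M libraries, and 11513 and 10501 ppm in the RE libraries. Both M libraries were the highest, both RE libraries stood between, and no groups overlapped. The E replicates differed 2.22-fold, a difference that 4.82% of all genes tested exceeded, while the M replicates differed 1.01-fold. *Fn1* rose 4.72-fold on the means from E to M (2.35 ± 0.36 in log2, SE, limma adjusted p = 0.00184). Without M replicate 1 or M replicate 2 the adjusted p by limma was 0.0171 or 0.0163 and the call was lost. The RE mean was 60.9% of the M mean, and this difference was not called (−0.72, 95% interval −1.55 to 0.11, limma adjusted p = 0.167). The spread behind that interval takes in the 2.22-fold difference between the E replicates. With both E libraries left out, the M to RE difference was −0.69 (SE 0.12, limma adjusted p = 0.000253) and missed the fold threshold only. With library totals it was −0.51 (limma adjusted p = 0.281), and none of the 17 other settings called it. Against E, the RE mean was 2.88 times as high, a log2 difference of 1.63 (95% interval 0.81 to 2.46) that missed the threshold on p (limma adjusted p = 0.0135). Without 1 of the M or RE libraries the adjusted p by limma ran from 0.0286 to 0.116. Without E replicate 1 or E replicate 2 the difference was 1.06 or 2.21 and passed, but those fits hold 1 E library, take the spread from the M and RE replicates alone and so leave out the 2.22-fold difference between the E replicates.

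*Tnc* encodes tenascin-C, a hexameric glycoprotein that binds fibronectin and loosens cell adhesion to it. It was at 58.7 and 114.8 ppm in the E libraries, 13040 and 13407 ppm in the M libraries, and 223 and 264 ppm in the RE libraries. The M libraries were far above the rest, and the RE libraries, though low, both lay above both E libraries. The M mean was 152.5 times the E mean (7.33 ± 0.29 in log2, SE, limma adjusted p = 9.34e-06), which ranks 10 among the 13893 genes tested by the size of the change. From M to RE the log2 level fell by 5.77 (standard error 0.29, limma adjusted p = 1.76e-05), to 1.84% of the M mean. What remained in the RE cells was 2.81 times the E mean (1.56, 95% interval 0.89 to 2.24, limma adjusted p = 0.00713). That call was lost without any 1 of the 4 M and RE libraries (adjusted p by limma from 0.0201 to 0.0639), with no filter on low values (0.0158) and in a fit of E and RE alone (0.0195). The E replicates differed 1.96-fold, with E replicate 2 the higher one, as for *Fn1*.

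*Thbs1* encodes thrombospondin-1, a secreted trimer that can release TGFβ from its latent form. Its coverage was 1002 and 1288 ppm in the E libraries, 3621 and 3847 ppm in the M libraries, and 3394 and 3423 ppm in the RE libraries. The RE libraries lay just under the M libraries and well above the E libraries. The rise from E to M was 3.26-fold on the means (1.72 ± 0.18 in log2, SE, limma adjusted p = 0.000372). The M to RE difference was −0.13 with a 95% interval of −0.56 to 0.29 (limma adjusted p = 0.628), and it turned to 0.074 with library totals. The RE mean stood 2.98 times above the E mean (1.59, 95% interval 1.16 to 2.01, limma adjusted p = 0.00128). This last call was lost without RE replicate 1 or RE replicate 2 (adjusted p = 0.0282 and 0.0229 by limma), with the fold change at 1.59 and 1.58.

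*Thbs2*, which encodes the related thrombospondin-2, was measured at a much lower level. It had 1946 and 1300 bases in the E libraries, 2600 and 2898 in the M libraries and 3492 and 2450 in the RE libraries, or 0.677 to 1.48 ppm. The M and RE libraries overlapped, and all 4 were above both E libraries. No comparison called it: its log2 fold change was 0.69 in E vs. M (95% interval 0.04 to 1.34, limma adjusted p = 0.0819), −0.040 in M vs. RE (−0.69 to 0.61, adjusted p = 0.929) and 0.65 in E vs. RE (0.0023 to 1.30, adjusted p = 0.114). The upper bounds of these intervals in E vs. M and E vs. RE lie above the threshold of 1.

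*Postn* encodes periostin and *Tgfbi* the TGFβ-induced protein, the secreted members of the fasciclin-domain family. *Postn* was at 123 and 109.6 ppm in the E libraries, 2154 and 2363 ppm in the M libraries, and 1519 and 945 ppm in the RE libraries. The 3 stages did not overlap, but the RE replicates differed 1.61-fold, a difference that 4.66% of all genes exceeded. *Postn* rose 19.4-fold on the means in the M cells (4.28 ± 0.23 in log2, SE, limma adjusted p = 1.93e-05) and was still 10.6-fold above E in the RE cells (3.37 ± 0.23 in log2, SE, limma adjusted p = 0.000246). It was the only 1 of the 8 genes called in E vs. RE under all 17 other settings of the fit. Its M to RE difference of −0.91 (95% interval −1.44 to −0.39, limma adjusted p = 0.0195) was not called, and lay between −1.26 and −0.57 when single libraries were left out.

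*Tgfbi* was low throughout and, with *Tnc*, was among the genes whose M level was mostly gone in RE. It alone of the 8 had an RE mean below its E mean, and there the libraries overlapped. It had 1149 and 550 bases in the E libraries, 9539 and 10112 in the M libraries, and 550 and 650 in the RE libraries, which is 0.532 and 0.286, 4.57 and 4.91, and 0.233 and 0.296 ppm. The M libraries stood apart from the other 4. *Tgfbi* rose 11.6-fold on the means (3.29 ± 0.32 in log2, SE, limma adjusted p = 0.000241), and in RE the log2 level fell by 3.74 (SE 0.32, limma adjusted p = 0.000153). In E vs. RE the difference was −0.44, with a 95% interval of −1.19 to 0.30 (limma adjusted p = 0.323). The fold changes depend on the pseudocount at this level, and with 1 ppm in place of 0.1 they were 2.03 and −2.18, both still called.

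*Sparc* encodes osteonectin, a collagen-binding glycoprotein of remodelled matrix. It was at 227 and 238 ppm in the E libraries, 1102 and 1051 ppm in the M libraries, and 538 and 534 ppm in the RE libraries. Its replicates were the closest of the 8 genes on the whole, at most 1.05-fold apart, and the stages were well separated. It rose 4.63-fold on the means in the M cells (2.21 ± 0.13 in log2, SE, limma adjusted p = 2.73e-05), was 2.01-fold lower in RE than in M (−1.006 ± 0.13 in log2, SE, limma adjusted p = 0.0011), and remained 2.31-fold above E (1.21 ± 0.13 in log2, SE, limma adjusted p = 0.00102). The M to RE call lies at the fold threshold. It was lost with library totals (−0.80), with median-of-ratios size factors (−0.99) and when only M and RE were fitted (−0.98). It was also lost without E replicate 2, either M library or either RE library (−1.04 to −0.97). Without M replicate 2 (−1.04) or RE replicate 1 (−1.011) the fold threshold was still passed, and the call was lost on the adjusted p. The E vs. RE call was lost without RE replicate 1 or RE replicate 2 (adjusted p = 0.0273 and 0.0207 by limma).

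*Spp1* encodes osteopontin, an integrin- and CD44-binding phosphoprotein that secretory epithelia also make. In E vs. M and in M vs. RE, but not in E vs. RE, its change had the opposite sign to the rest. It was at 1564 and 1342 ppm in the E libraries, 1202 and 1119 ppm in the M libraries, and 1850 and 1924 ppm in the RE libraries. The M libraries were the lowest and the RE libraries the highest, with no overlap, but every difference was under the fold threshold. The log2 fold change was −0.32 in E vs. M (95% interval −0.69 to 0.046, limma adjusted p = 0.139), 0.70 in M vs. RE (0.34 to 1.07, adjusted p = 0.0132) and 0.38 in E vs. RE (0.014 to 0.75, adjusted p = 0.105). Under the 17 other settings of the fit it kept these signs and was never called.

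Groups without overlap are common with 2 libraries each, so the separation described for single genes is a weak measure here. No overlap between the groups was seen for 70.6% of all genes tested in E vs. M, for 78.1% in M vs. RE and for 66.7% in E vs. RE. Of the 8 genes, 8, 7 and 7 had none.

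**Figure D3:**
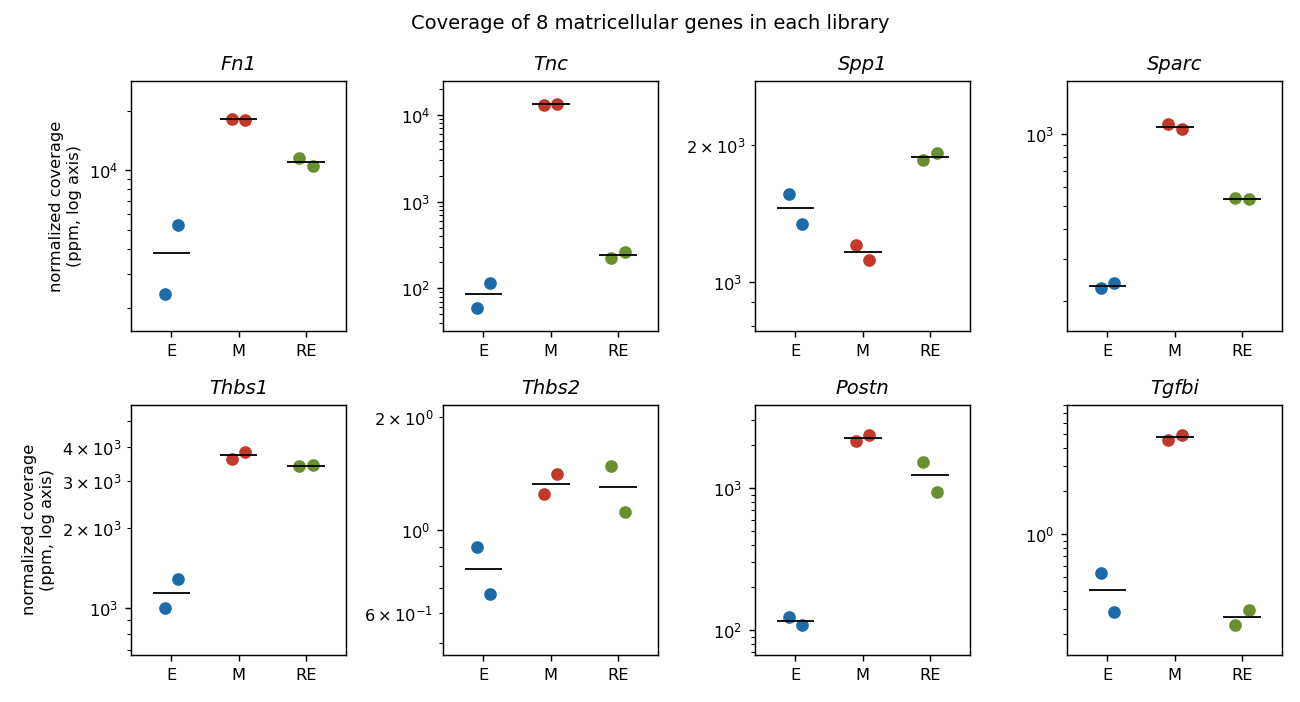
Normalized coverage (ppm, log y axis with a range of its own in each panel) of each gene in the E, M and RE libraries; points are single libraries and lines are means of 2. In 6 panels both M points are the highest, Spp1 is lowest in M and highest in RE, and in Thbs2 the M and RE points overlap.

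Levels of different genes were compared per kilobase of the longest annotated transcript, as ppm per kb, mean ± SD (n = 2). In the E cells *Spp1* was highest at 964 ± 104, followed by *Fn1* at 460 ± 246, *Thbs1* at 196 ± 34.5, *Sparc* at 101 ± 3.46, *Postn* at 22.3 ± 1.83 and *Tnc* at 12.2 ± 5.58. In the M cells *Fn1* (2174 ± 22.1) and *Tnc* (1861 ± 36.6) led, ahead of *Spp1* at 770 ± 39, *Thbs1* at 639 ± 27.4, *Sparc* at 468 ± 15.5 and *Postn* at 432 ± 28.3. The level of *Tnc* thus went from the lowest of these 6 genes to the second highest. In the RE cells *Fn1* (1324 ± 86) and *Spp1* (1252 ± 34.9) differed by less than the SD of *Fn1*, and so did *Postn* (236 ± 77.6) and *Sparc* (233 ± 1.25) by less than that of *Postn*. *Thbs1* stood between these pairs at 583 ± 3.52, and *Tnc* was again the lowest of the 6 at 34.3 ± 4.05. *Thbs2* and *Tgfbi* were between 0.088 and 1.58 ppm per kb at every stage.

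The genes most like *Fn1*, by the root mean square distance between centred log2 profiles over the 6 libraries, were *Lrp1* (0.085), *Scube3* (0.094) and *Frmd4a* (0.12). *Lrp1*, an endocytic receptor whose ligands include thrombospondin-1, had means of 781, 3987 and 2362 ppm in the E, M and RE cells. Nearest to *Tnc* were *Adamts4* (0.25), *Cntn2* (0.42) and *Col5a3* (0.44). *Adamts4*, a secreted proteoglycanase, was at 0.945, 181 and 2.17 ppm. Nearest to *Postn* was *Col1a1* (0.27), which encodes a chain of type I collagen and was at 32.2, 497 and 236 ppm, followed by *Serpinf1* (0.31) and *Loxl3* (0.33). The closest match to *Sparc* was *Ext1* (0.053), an enzyme of heparan sulfate synthesis, at 136, 616 and 299.9 ppm. Among the 8 genes themselves, the smallest distance was between *Fn1* and *Sparc* (0.361). The pairs *Sparc* and *Thbs1* (0.3707) and *Fn1* and *Thbs1* (0.3709) were nearly as close.

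Receptors of these proteins were taken from a list of 18 genes, of which 13 were tested. Of these, 8 were called higher and none lower in E vs. M, and 2 higher and 7 lower in M vs. RE. In E vs. RE, 3 were called higher and none lower. Of all genes tested, 17%, 12.9% and 9.37% were called in the 3 comparisons, the shares that stand beside the lists below as well. The median log2 fold changes of the list were 1.56, −1.12 and 0.43. *Itga5*, the α subunit of the main fibronectin receptor, was at 85.9 and 106 ppm in the E, 1082 and 1120 ppm in the M and 179 and 171 ppm in the RE libraries, a rise of 3.52 (limma adjusted p = 9.79e-06) and a fall to RE of −2.65 (adjusted p = 2.43e-05). Its partner *Itgb1* rose by 1.56 (limma adjusted p = 0.000208) and changed by −1.12 from M to RE (adjusted p = 0.00117). *Itgav*, the α subunit of receptors for osteopontin, periostin and fibronectin, rose by 3.21 in E vs. M (limma adjusted p = 8.28e-05) and was still 1.62 higher in RE than in E (adjusted p = 0.0035). *Itgb3*, which pairs with *Itgav*, had 50 and 0 bases in the E libraries, which is under 3 reads' worth, and 21885 and 24279 in the M libraries, so that it was at least 143-fold higher in M. In the RE libraries it was back at 198 and 149 bases. *Cd44*, a receptor of osteopontin and hyaluronan, was at 88.6 and 157 ppm in E, 447 and 455 ppm in M and 127 and 131 ppm in RE, and passed both thresholds in E vs. M (1.93, limma adjusted p = 0.00081) and M vs. RE (−1.80, adjusted p = 0.00138) only. Of the genes called higher in RE than in E, *Itgb8*, named after its values were seen and encoding a subunit that binds latent TGFβ, was at 1.33 and 2.72 ppm in E, 2.10 and 3.30 ppm in M and 19.8 and 11.7 ppm in RE (2.93 in E vs. RE, limma adjusted p = 0.00241).

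Other matricellular genes were taken from a list of 25, of which 15 were tested. In E vs. M, 7 were called higher and 3 lower, and in M vs. RE 2 higher and 3 lower. In E vs. RE, 6 were called higher and 4 lower. The median log2 fold changes were 1.31, 0.00096 and 1.08. The CCN family genes in it went in different directions. *Wisp1* (CCN4) was at 2.21 and 5.97 ppm in the E, 134.5 and 129 ppm in the M and 10.2 and 9.76 ppm in the RE libraries, with a rise of 5.13 (limma adjusted p = 7.8e-05) and a fall of −3.71 (adjusted p = 0.000396). *Ctgf* (CCN2), a TGFβ target that binds fibronectin, was at 151 and 201 ppm in E, 791 and 738 ppm in M and 64.9 and 63.0 ppm in RE, so that it was called higher in M than in E (2.13, limma adjusted p = 7.96e-05) and lower in RE than in E (−1.45, adjusted p = 0.00119). *Tnn* (tenascin-W), a second tenascin, was far lower than *Tnc*, with 350 and 435 bases in E, 8184 and 14309 in M and 8381 and 8500 in RE. It rose in the M cells by 4.19 (limma adjusted p = 7.8e-05) and was not called between M and RE (−0.48, 95% interval −1.22 to 0.25, adjusted p = 0.282), in contrast to the −5.77 of *Tnc*, although the difference between the genes was not tested. *Tnxb* (tenascin-X), named after its values were seen, went the other way. It had 7406 and 5002 bases in E, 894 and 497 in M and 1526 and 1232 in RE. Against E it was called lower in M (−2.86, limma adjusted p = 0.000464) and in RE (−2.14, adjusted p = 0.00331).

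Genes of fibronectin assembly and matrix processing came from a list of 15, of which 14 were tested. In E vs. M 8 were called higher and 1 lower, and in M vs. RE 2 higher and 4 lower. In E vs. RE 1 was called higher. The medians were 1.39, −0.89 and 0.53. *Bmp1*, a protease that trims matrix proteins including procollagens, was at 104 and 128 ppm in E, 759 and 795 ppm in M and 118 and 123.5 ppm in RE (2.75 in E vs. M, limma adjusted p = 1.84e-05, and −2.68 in M vs. RE, adjusted p = 2.22e-05). Its relative *Tll1* had 100 bases in each E library, 29057 and 25798 in the M libraries and 300 and 150 in the RE libraries, and was at least 169-fold higher in M than in E. *Lox*, a collagen cross-linking oxidase, was at least 9.79-fold higher in M than in E, with 55 and 100 bases in E and 1293 and 1874 in M. The gene called lower in E vs. M was *Tgm2*, a transglutaminase that acts as a fibronectin co-receptor, named because the count was 1. It was at 460 and 486 ppm in E, 196 and 188 ppm in M and 708 and 658 ppm in RE (−1.30, limma adjusted p = 0.000269, and 1.83 in M vs. RE, adjusted p = 6.44e-05). The gene called higher in E vs. RE was *Mmp2*, a gelatinase (2.08, limma adjusted p = 0.000981). Of 8 TGFβ1 response genes 7 were tested, and 5 of them were called higher in E vs. M and 5 lower in M vs. RE. In E vs. RE 1 was called, *Ltbp2*, which encodes a latent TGFβ binding protein (1.27, limma adjusted p = 0.00579). *Skil*, a SMAD co-repressor, rose by 2.15 (limma adjusted p = 0.000186). *Smad7*, the inhibitory SMAD, was at 24.6 and 27.3 ppm in E, 38.1 and 45.6 ppm in M and 13.8 and 18.0 ppm in RE, and was called in M vs. RE only (−1.40, limma adjusted p = 0.00114).

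**Figure D4:**
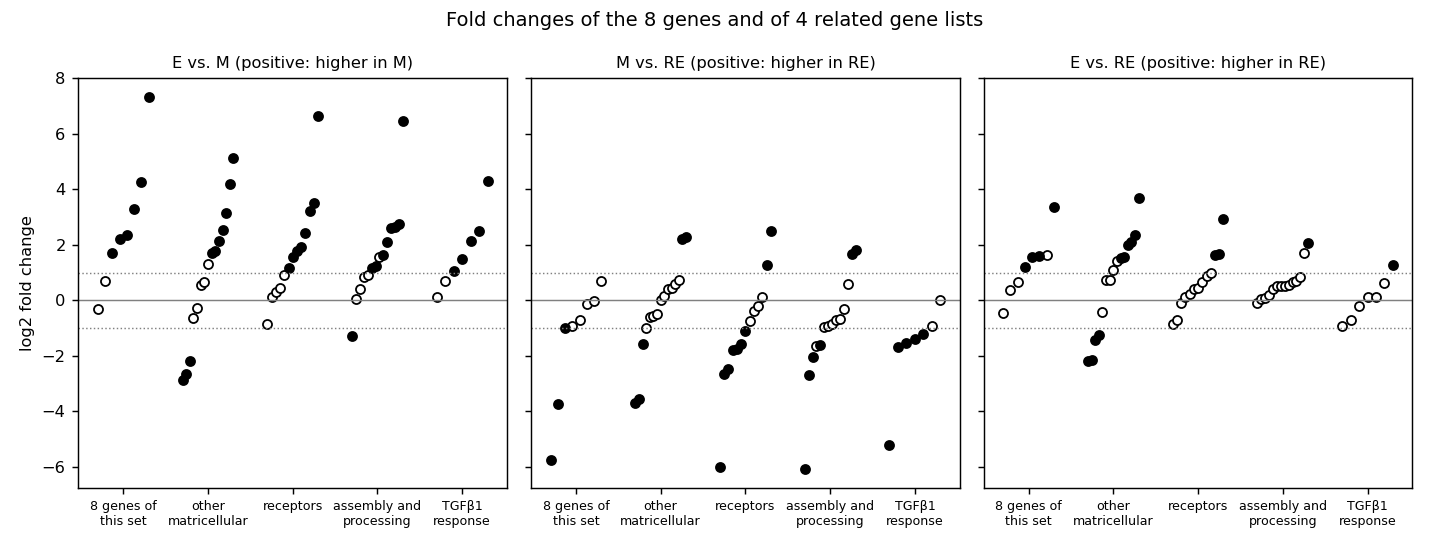
Log2 fold change (y axis) of each tested gene of the 8 and of the 4 related lists (x axis) in the 3 comparisons; each point is a gene, filled points were called, and dotted lines mark a log2 fold change of 1 in either direction. The 8 genes, the receptors, the assembly genes and the TGFβ1 response genes lie mostly above 0 in E vs. M and mostly below it in M vs. RE. Most points of the first 3 of these lists are again above 0 in E vs. RE.

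Markers of other cell types that also make these proteins were read from fixed lists. Of 6 fibroblast markers 5 were in the table, and their summed coverage was 88.5 to 116 ppm in the E libraries, 447 to 492 ppm in the M libraries and 769 to 911 ppm in the RE libraries, nearly all of it from *Pdgfrb* and *Pdgfra*. Of the 4 tested, 1 was called higher and 1 lower in E vs. M, 2 higher in M vs. RE and 3 higher in E vs. RE. *Pdgfrb* was called higher in M than in E (2.46, limma adjusted p = 0.000114), as were 6 of the 8 genes, while *Pdgfra* was not called there (0.78). Unlike most of those genes, *Pdgfrb* had a still higher mean in RE (3.25 in E vs. RE, limma adjusted p = 0.000223). Its M vs. RE difference was not called (0.79, adjusted p = 0.0218 by limma). *Thy1* was at or under 50 bases in every library, and *Col6a3* was not called in any comparison. *Dcn* had 1072 and 579 bases in the E libraries, 0 and 14 in the M libraries and 8952 and 3833 in the RE libraries. It was called lower in M than in E, by at least 5.48-fold, and higher in RE than in E (2.45, limma adjusted p = 0.00599). Unlike the 8 genes, which summed to 5354.5 to 8369 ppm in E, 39326 to 39736 ppm in M and 17592 to 19038 ppm in RE, the fibroblast sum was highest in RE. Of the 4 leukocyte markers *Ptprc* and *Cd3e* were at or under 3 reads' worth in every library, and the sum was 5.27 to 9.31 ppm. The 4 endothelial markers summed to 0.56 and 0.37 ppm in the E, 2.71 and 2.73 ppm in the M and 0.50 and 0.49 ppm in the RE libraries. Of these *Cdh5* (VE-cadherin), named after its values were seen, moved in the direction of most of the 8 genes: it had 0 bases in both E libraries, 4865 and 4274 in M and 100 and 200 in RE, was at least 28.2-fold higher in M than in E, and was called lower in RE than in M (−3.80, limma adjusted p = 0.000202). The 3 adipocyte markers summed to 0.093 ppm or less. The 6 epithelial markers summed to 1621 to 2043 ppm in E, 1937 to 2067 ppm in M and 1117 to 1182 ppm in RE, with 1 called higher and 1 lower in E vs. M, 2 lower in M vs. RE and 2 lower in E vs. RE. The part of these markers in the results was not tested beyond these values.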

How the data were processed

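RNA from 2 biological replicates each of E, M and RE cells was sequenced on an Illumina Genome Analyzer. Unique reads had been aligned by the authors with Bowtie and TopHat2 to mouse build NCBI-m37. The deposited table holds whole numbers per gene, handled here as coverage signal because the values are too large for reads and between 44.8% and 48.4% of those from 1 to 400 are multiples of 50. How reads were summed per gene, on which strand and with which annotation is not given in the sources used here, so that overlapping genes may share coverage. Coverage was scaled by TMM without weights (trimming 30% at both ends by log ratio and 5% by mean level), expressed in ppm, and fitted with limma 3.58.1 in R 4.3.3 on log2(ppm + 0.1), by group, with a trend on mean expression and adjustment over all 13893 genes tested. The edgeR test named in the paper's methods needs read counts and was not run. Thresholds are those of the paper's methods. A group with 150 bases (3 reads' worth) or fewer in each library was at the floor, and a fold against it is a bound; floors cover counting error only. Transcript length and GC content came from GENCODE M21 (GRCm38), for the 93.4% of tested genes whose symbol was found there, and older symbols were matched through RefSeq synonyms. Simulated data were used to test the script. With 2 libraries a group, an exact permutation test could not have passed. The members, the gene lists and the settings were chosen with earlier results of these data known. All 8 genes are named. From each list, the 3 called genes with the largest change (1 of them is not reported here), *Smad7*, *Itgb1* and *Cd44* are named, and others are said to be named after their values were seen or because a count was small. Alternatives were library totals, median-of-ratios size factors, no filter or 500 bases in every library, pseudocounts of 0.025 and 1, a fit of the 2 groups compared, the replicate block, array weights, removal of trends on GC content and length, thresholds of 1.5-fold or an adjusted p under 0.05, and leaving out each library.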

Additional observations from a re-analysis of the deposited data

How the results depend on the processing

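Over the 17 other settings of the fit, 377 of 408 fold changes of the 8 genes kept their direction and their side of the threshold, 20 lost their call, 7 gained one and 4 changed sign, all 4 of genes that were not called. In M vs. RE, *Thbs1* turned to 0.074 with library totals, and *Thbs2* to 0.15 with library totals and to between −0.23 and 0.15 when single libraries were left out. The number of the 8 genes called stayed within 1.5 times under every setting except in E vs. RE, where leaving out single libraries gave 1 to 5, and the 1 was found without RE replicate 1 and without RE replicate 2. *Fn1* in E vs. RE was called with array weights (1.63, limma adjusted p = 0.00344). It was also called, at a smaller fold change, after removal of the trends on GC content and length (limma adjusted p = 0.00272). That removal lowered the log2 fold changes of *Fn1*, *Tnc*, *Thbs1*, *Thbs2* and *Postn* in both E vs. M and E vs. RE. These genes have the longest annotated transcripts of the 8. The log2 fold changes of *Spp1*, *Sparc* and *Tgfbi* were higher after it in both comparisons. *Postn* in M vs. RE was called after that removal (−1.11, limma adjusted p = 0.00162). The causes were not tested. The replicate numbers shared by the groups do not show that the libraries are paired: the correlation over genes between deviations of libraries sharing a number was 0.27 (E with M), 0.058 (E with RE) and 0.12 (M with RE). Blocked on that number in a replicate block, 6, 3 and 4 of the 8 genes were called in E vs. M, M vs. RE and E vs. RE, as without it, while 2431, 1830 and 1284 of all genes were called against 2358, 1789 and 1302. The number of all genes called in E vs. RE was 697 in a fit of those groups alone. Where a library was left out, the lone library of its group was assumed to vary like the other groups. *Thbs2* and *Tgfbi* had the lowest depth, with 550 to 10112 bases a library, and the part of depth in their results was not tested.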
